A study of Oryza sativa with 12 samples.

Results

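Pathogenesis-related (PR) protein genes of rice were described in root libraries of WT and Os1400 seedlings grown with normal or low phosphate. Members were taken from the descriptions in the FPKM table by a protein domain. They were chitinases (PF00182), PR1 proteins with a CAP domain (PF00188), thaumatin-like PR5 proteins (PF00314) and PR10 proteins of the Bet v 1 type (PF00407). A total of 110 of 41620 genes carried such a domain, namely 15 chitinase, 31 PR1, 56 thaumatin and 8 PR10 genes. No expression value entered this choice.

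All plants were of the cultivar Nipponbare, and total root RNA was sampled at the age of 3 wk. Os1400 is the CRISPR/Cas9 line Os1400-12SIII, in which both alleles of the MAX1 homolog Os1400, a cytochrome P450 gene of strigolactone biosynthesis, are disrupted. Only this line represented the mutant. Seedlings of both genotypes stood in hydroponic culture for 2 wk. The solution held phosphate at 0.4 mM in the +Pi groups and at 0.004 mM in the low-Pi groups, which gave 4 groups of 3 libraries. The study describes its heat map of expression as holding 3 biological replicates. The labels do not say whether the libraries of a group came from separate plants, so the p-values measure the spread between these libraries only.

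PR proteins are grouped by structure and accumulate in plants on attack by pathogens, and many also respond to hormones and abiotic stress. Chitinases cut chitin, the polymer of fungal cell walls. PR1 proteins are secreted CAP-domain proteins that bind sterols, and their transcripts are widely used as markers of salicylic acid defence. Thaumatin-like proteins include osmotins, which can permeabilise fungal membranes. PR10 proteins are small intracellular proteins with a hydrophobic pocket that holds ligands such as cytokinins. In rice, PR1a and PBZ1 (PR10a) are the common reporters of blast infection, whereas RSOsPR10 is known from roots and responds to jasmonate.

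Total counts per library ranged from 28271749 to 41078078, and 3 counts, the limit that a count of 0 allows, were worth 0.073 to 0.106 CPM (counts relative to the library total; counting error only). The low-Pi WT libraries stood apart, since 17711 to 22077 genes had a count in them, against 27191 to 30375 genes in the other 9 libraries. Of 51 PR genes with a count in each of those 9 libraries, 13 (25.5%) were at 0 in at least 1 low-Pi WT library. Among all 23827 such genes the share was 34.8%. OsLsi1, a silicon channel of rice roots, was at 180 to 4395 FPKM, with the highest value in WT low-Pi replicate 3, and OsLsi2, its efflux partner, was at 123 to 1260 FPKM. The iron transporter OsIRT1 did not exceed 2.27 FPKM. Summed over 20 genes of chlorophyll a/b-binding proteins, which mark green tissue, the level was 67.8 to 107 FPKM in the 3 WT low-Pi libraries, above all 9 others at 32.7 to 59.3 FPKM. The 6 genes of the Rubisco small subunit, also a mark of green tissue, did not follow. Their sum was 1.82, 5.83 and 21.4 FPKM in WT low-Pi and 6.42 to 18.1 FPKM in the other 9 libraries. Single chlorophyll a/b-binding genes went both ways. In the edgeR comparison below, 4 of 9 tested (44.4%) were higher and 1 (11.1%) was lower in Os1400 at low-Pi. Of all genes, 12.4% were higher and 4.47% lower there. The chlorophyll a/b sum and the gene number thus moved with the group that enters the low-Pi genotype, WT Pi and interaction results below, and their part in those was not tested.

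Of the 110 PR genes, 69 had counts at both Pi supplies, 7 at +Pi only, 4 at low-Pi only and 30 at neither. The last comprised 21 thaumatin, 8 PR1 and 1 chitinase gene. Another annotated gene overlapped 19 of these 30, and the 18 thaumatin genes among them each overlapped a further thaumatin gene on the opposite strand. Of the 80 PR genes with counts, 18 overlapped another gene. Whether counting used the strand is not stated in the sources used here, so zeros and counts of overlapping genes are uncertain. In at least 1 library, 49 PR genes reached 10 FPKM (13 PR1, 10 chitinase, 21 thaumatin and 5 PR10 genes), while 43 stayed below 1 FPKM in every library.

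FPKM, in which fragments are scaled by gene length and library size, was used to compare levels between genes, and it showed that a single gene carried most of the PR1 level. Os10g0191300 (PR1-101 in the tables, chromosome 10 from 6370102 to 6370799 on the plus strand) was at 744, 980 and 811 FPKM in WT +Pi and at 879, 646 and 518 FPKM in Os1400 +Pi. At low-Pi its level was 13209, 4685 and 41512 FPKM in WT and 5744, 1671 and 7238 FPKM in Os1400. It ranked between 41 and 116 among all genes at +Pi. At low-Pi it was the most abundant gene by FPKM in 4 of 6 libraries, with rank 3 in WT replicate 2 and rank 13 in Os1400 replicate 2. It held up to 2.13% of all counts of a library, in WT low-Pi replicate 3. No other PR gene came near, as the next by mean FPKM was Chitinase 2 (Os05g0399300), with 71.8 to 4232 FPKM.

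**Figure D1:**
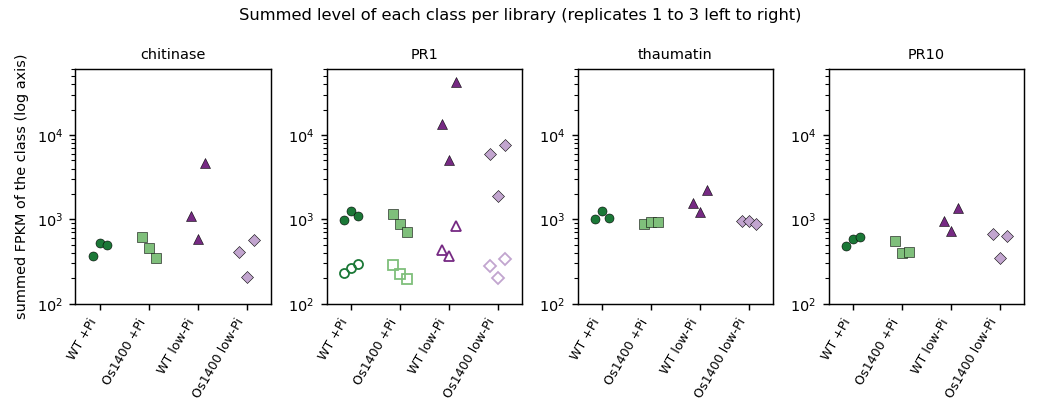
Summed FPKM of each class (y axis, log scale) in the 12 libraries, with replicates 1 to 3 of each group from left to right; open symbols in the PR1 panel leave out Os10g0191300. The PR1 sum was between 714 and 1246 FPKM at +Pi and between 1875 and 42353 FPKM at low-Pi, and without Os10g0191300 it stayed between 197 and 841 FPKM.

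The summed level of the other classes varied less. PR10 genes summed to 397 to 623 FPKM at +Pi and to 345 to 1375 FPKM at low-Pi. Thaumatin genes summed to 880 to 1244 FPKM at +Pi, to 1237 to 2250 FPKM in WT low-Pi and to 884 to 960 FPKM in Os1400 low-Pi. Chitinases summed to 351 to 626 FPKM at +Pi, to 590 to 4595 FPKM in WT low-Pi and to 206 to 571 FPKM in Os1400 low-Pi. In 3 of the 4 classes the lowest low-Pi sum was in Os1400 replicate 2 and in all 4 the highest was in WT replicate 3. Os1400 replicate 2 also stood apart gene by gene. Of 38 PR genes with 10 counts in every low-Pi library, 26 (68.4%) had the lowest of the 3 Os1400 values in replicate 2, against 37.1% of 15477 genes. For WT replicate 3 the share was closer to that of all genes, as 17 (44.7%) had their highest WT value there, against 35.4%.

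**Figure D2:**
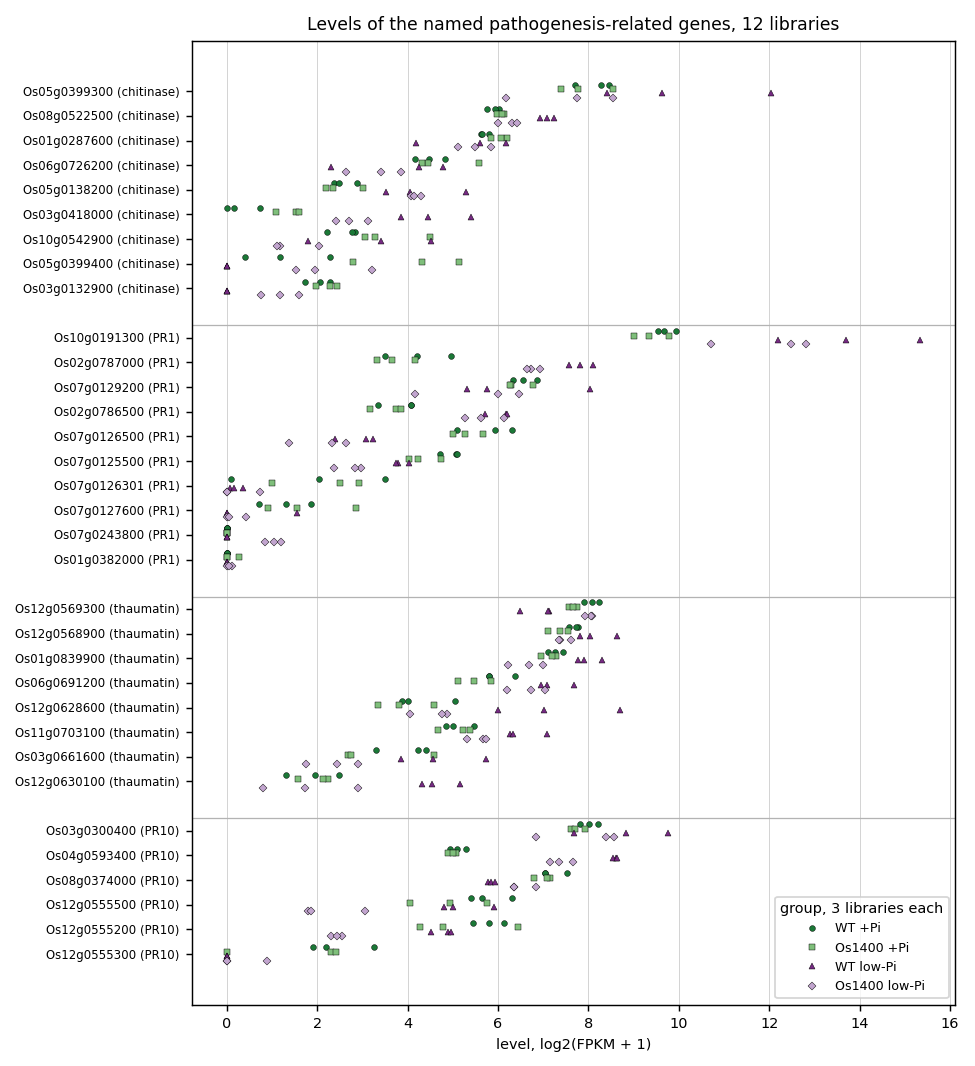
Level of each named PR gene as log2(FPKM + 1) (x axis) in the 12 libraries, by class and in order of the mean level; each symbol is 1 library. Os10g0191300 spans the widest range of levels, and several genes sit at 0 in the 3 WT low-Pi libraries.

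Each comparison was made with edgeR's quasi-likelihood test over all genes that passed the filter on low counts, with Benjamini-Hochberg (BH) adjustment, and genes were called up to an FDR of 0.05. At +Pi, Os1400 and WT differed in none of the 64 PR genes tested, where 0.958% of all 27777 genes were called (0.54% higher and 0.418% lower). At an unadjusted p of 0.05, 4 (6.25%) were higher and 8 (12.5%) lower in Os1400, against 5.24% and 4.83% of all genes, and DESeq2 called 1 gene in each direction, against 1.09% of all genes higher and 0.892% lower. The median log2 difference of the 64 was -0.21, against 0.01 over all genes. At low-Pi, 4 of 55 PR genes (7.27%) were higher and 9 (16.4%) lower in Os1400, while 12.4% of 25426 genes were higher and 4.47% lower. The median log2 difference was -0.78 for the PR genes and 0.22 for all genes, and the latter was 0.11 after upper-quartile scaling. Among genes with 10 counts in every library, 1 of 38 PR genes was higher and 10 were lower, against 6.93% and 9.56% of all such genes, whose median was -0.04. When Os1400 low-Pi replicate 1 was left out, or replicate 3 in its place, no PR gene and no gene at all passed the FDR. At an unadjusted p of 0.05, 8 of 60 were then higher and 12 lower without replicate 1 (15.1% and 5.88% of all genes), and 5 and 12 of 59 without replicate 3 (15.2% and 6.38% of all genes). Without Os1400 replicate 2, 1 of 59 was higher and 2 were lower, against 6.55% and 1.42% of all genes. Without WT low-Pi replicate 3, 11 of 59 (18.6%) were higher and 9 (15.3%) lower, against 21.3% and 5.38% of all genes.

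Low Pi raised 11 of 56 PR genes (19.6%) and lowered 8 (14.3%) in WT, against 8.46% and 15.2% of 25163 genes. The median log2 change was 0.45, and -0.28 over all genes (-0.13 after upper-quartile scaling). Among genes with 10 counts in every library 13 of 38 PR genes rose and 5 fell, against 18% and 14.4% of all such genes. The calls fell to 6, 12 and 7 without WT +Pi replicate 1, 2 or 3. The shares of all genes fell as well, to 2.53%, 4.34% and 2.71% rising and to 4.58%, 9.33% and 4.34% falling. Without WT low-Pi replicate 3 the balance turned, with 11 of 60 (18.3%) rising and 16 (26.7%) falling, against 9.7% and 24.1% of all genes. In Os1400, 9 of 62 PR genes (14.5%) rose and 10 (16.1%) fell, where 29.6% of all 27647 genes were called (15.6% and 14.0%). The median log2 change was -0.25, against 0.00 over all genes. Of 56 genes tested in both genotypes, 6 (10.7%) rose and 4 (7.14%) fell in both, and 1 (1.79%) was called in opposite directions, against 5.4%, 4.88% and 0.518% of 24898 genes. The interaction term, which asks whether the genotype difference itself depended on Pi, was called for 8 of 64 PR genes. It was positive for 3 (4.69%) and negative for 5 (7.81%), against 10.6% and 2.82% of 28691 genes. After upper-quartile scaling it was positive for 2 and negative for 6, against 9.11% and 4.18% of all genes. Among genes with 10 counts in every library it was positive for 2 and negative for 8 of 37, against 7.04% and 7.7% of all such genes. It was called for 13 PR genes without WT low-Pi replicate 3 and for 4 without WT +Pi replicate 1 or without any 1 of the Os1400 +Pi libraries. The WT low-Pi libraries enter the low-Pi genotype comparison, the WT Pi comparison and the interaction, which are therefore not independent of each other.

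PR1 genes were called in both directions with low Pi. In WT 3 of 13 (23.1%) rose and 2 (15.4%) fell, against 8.46% and 15.2% of all genes, and in Os1400 4 of 15 (26.7%) rose and 5 (33.3%) fell, against 15.6% and 14.0%. Os10g0191300 rose 22.5-fold in WT (log2 4.49 ± 0.84 SE, n = 3 and 3 libraries, edgeR FDR = 0.0151) and 7.66-fold in Os1400 (log2 2.94 ± 0.45, edgeR FDR = 0.000993). Every low-Pi library lay above every +Pi library of its genotype, but the WT low-Pi libraries differed among themselves 8.28-fold in CPM. At low-Pi the Os1400 and WT libraries overlapped, and the genotype difference of -1.95 ± 0.91 on the log2 scale did not pass (edgeR FDR = 0.24). The WT call was lost without any 1 of the WT +Pi libraries, with a highest adjusted p of 0.0698. The WT rise was 3.32 on the log2 scale without WT low-Pi replicate 3 and 4.94 without replicate 2, and passed in both settings. OsLsi1 was at 719, 507 and 4395 FPKM in the same WT low-Pi libraries and at 396, 180 and 499.7 FPKM in the Os1400 ones, in the same order as Os10g0191300, and its part in the result was not tested. Here as in all other results, fewer cells of a type and less RNA per cell cannot be told apart in whole roots.

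In an array of 3 PR1 genes on chromosome 2, Os02g0787000 and Os02g0786500 gave the most even rise of the class. The third gene, Os02g0786400, did not rise and was called in no comparison. Its group means were 8.51 FPKM at +Pi and 3.89 FPKM at low-Pi in WT, and 10.6 and 8.69 FPKM in Os1400. Os02g0787000 (537 bp at 33427245 to 33427781, minus strand) was at 17.6, 30.1 and 10.3 FPKM in WT +Pi and at 272, 225 and 189 FPKM in WT low-Pi. In Os1400 it was at 9.07, 17.0 and 11.7 FPKM and at 105, 121 and 98.5 FPKM. The groups of each genotype did not overlap between Pi supplies, and all 3 Os1400 low-Pi values lay below all 3 WT values. It rose by 3.52 ± 0.44 in WT (edgeR FDR = 0.00628) and by 3.21 ± 0.23 in Os1400 (edgeR FDR = 1.35e-05) on the log2 scale, and at low-Pi it was lower in Os1400 (-1.002 ± 0.20, edgeR FDR = 0.0194). The interaction term did not pass, at -0.32 ± 0.49 (edgeR FDR = 0.75). Os02g0786500 (PR1-21) was at 7.95 to 15.9 FPKM at +Pi and at 37.7 to 72.0 FPKM at low-Pi, and it rose by 2.21 ± 0.31 in WT and by 2.30 ± 0.26 in Os1400 (edgeR FDR = 0.00859 and 0.000192). Its genotype difference at low-Pi was -0.27 ± 0.27 (edgeR FDR = 0.647). The genotype call of Os02g0787000 was lost without any 1 of the Os1400 low-Pi libraries (adjusted p of up to 0.0929). The rises of both genes passed in all 15 alternatives run for each.

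The known defence marker PR1a (Os07g0129200) did not follow. It was at 80.0, 115 and 93.5 FPKM in WT +Pi and at 108, 77.2 and 76.4 FPKM in Os1400 +Pi. At low-Pi the values were 52.7, 38.6 and 263 FPKM in WT and 63.5, 17.0 and 87.3 FPKM in Os1400, so that only WT replicate 3 lay above the +Pi range. Its Pi change in WT was 0.24 ± 0.72 (edgeR FDR = 0.874). Without WT low-Pi replicate 3 the direction turned, and it was lower at low-Pi by 1.14 on the log2 scale and passed the FDR. The genotype difference was -0.16 ± 0.16 at +Pi and -1.01 ± 0.87 at low-Pi, and neither passed (edgeR FDR = 0.833 and 0.573). PR1b (Os01g0382000) had at most 6 counts in any library and was too low to be tested.

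PR1a lies in an array of 15 PR1 genes on chromosome 7 between positions 1319034 and 1524512, of which 12 had counts. The array holds a repeated block. Genes of the same length, 756, 935 or 677 bp, recur 3 times each, and their starts are 33150 or 33153 bp apart. Reads of such copies could be shared or dropped in counting, so the levels of single copies are uncertain. The third copy of the 677-bp gene, Os07g0126500, was at 59.9, 33.02 and 78.7 FPKM in WT +Pi and at 4.24, 8.41 and 7.42 FPKM in WT low-Pi. In Os1400 it was at 49.6, 37.9 and 30.9 FPKM and at 4.03, 1.62 and 5.23 FPKM. It fell in both genotypes, by 3.13 ± 0.48 in WT and by 3.35 ± 0.38 in Os1400 on the log2 scale (edgeR FDR = 0.0112 and 0.000188), with no overlap of the groups. The first copy of that gene, Os07g0125201, with at most 48 counts in a library, and the third copy of the 756-bp gene, Os07g0126301, also fell in Os1400. The middle copy of the 756-bp gene, Os07g0125500, fell by 1.21 ± 0.32 in WT and by 1.67 ± 0.28 in Os1400 (edgeR FDR = 0.0404 and 0.00174). Its WT call was lost without any 1 of the WT +Pi libraries, while that of Os07g0126500 was lost without WT +Pi replicate 3.

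Beyond the repeated block, Os07g0127600 (PR1-73) fell in Os1400 from 193, 32 and 68 counts to 0, 1 and 9 counts (edgeR FDR = 0.0205), a call lost without Os1400 +Pi replicate 1 or Os1400 low-Pi replicate 1. The fitted log2 change was -4.51, and -3.39 to -7.09 with 1 library left out. At the far end of the array Os07g0128800 and Os07g0129300, like Os07g0125201, are given because of their place and were picked after their values were seen. Os07g0128800 rose in Os1400, from 2.43 to 3.11 FPKM at +Pi to 5.44 to 21.5 FPKM at low-Pi (log2 2.24 ± 0.49, edgeR FDR = 0.00674). Os07g0129300, the last gene, was at 13.6 to 42.6 FPKM at +Pi and at 31.0, 0 and 230 FPKM in WT low-Pi, which shows how far apart those libraries were. In the array as a whole, 2 of 7 genes tested fell in WT, against 15.2% of all genes. In Os1400 5 of 9 fell and 1 rose, against 14.0% and 15.6% of all genes. Among those that fell, Os07g0125201, Os07g0125500, Os07g0126301 and Os07g0126500 are copies in the repeated block. Their reads may be shared, so they may not be separate observations. Os07g0126301 was the PR gene just inside the FDR in the Os1400 comparison (edgeR FDR = 0.0427, lost without Os1400 +Pi replicate 1 or 3 or low-Pi replicate 2 or 3), and Chitinase 11 was the one just outside (edgeR FDR = 0.0523).

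**Figure D3:**
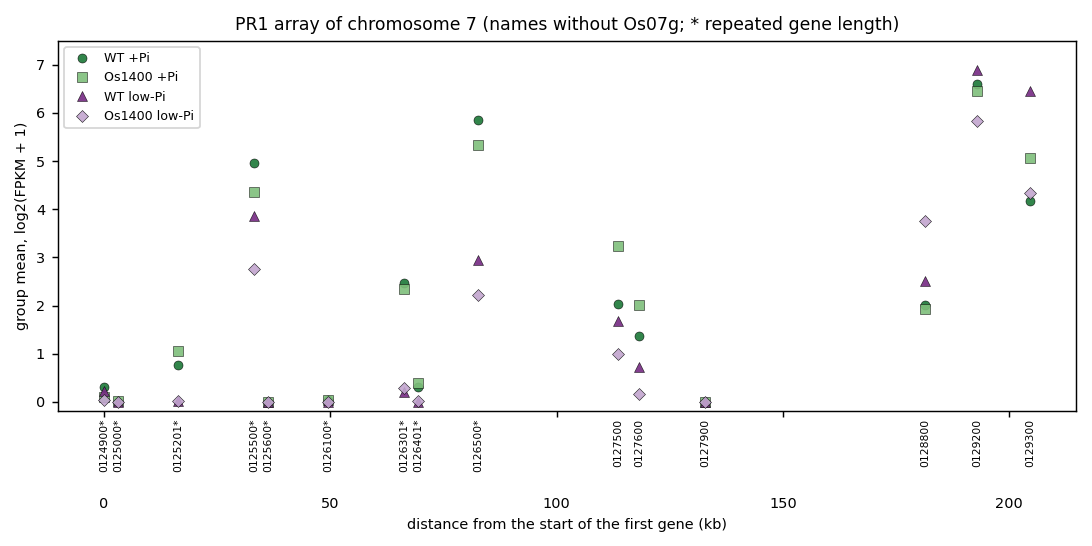
Group means of the 15 PR1 genes of the chromosome 7 array as log2(FPKM + 1) (y axis) against the distance from the start of the first gene (x axis); asterisks mark genes whose length recurs in the repeated block. Low-Pi means lie below +Pi means for the copies Os07g0125500 and Os07g0126500, and PR1a and Os07g0129300 at the right end have the highest low-Pi means.

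A last PR1 gene, Os07g0243800 on chromosome 7 outside the array, had 0 counts in the 3 WT low-Pi libraries and 28, 20 and 22 counts in the Os1400 low-Pi libraries. It was at least 5.71-fold higher in Os1400, computed against 3 counts per WT library (edgeR FDR = 0.0184), a call lost without Os1400 low-Pi replicate 1 or 3. At +Pi it was listed at 0 FPKM in all 6 libraries. Given the shortage of genes with a count in the WT low-Pi libraries, a zero there cannot be told apart from a transcript that was missed.

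Of the PR10 genes, Os04g0593400 (chromosome 4 from 30001534 to 30002419, plus strand) rose with low Pi and did so less in Os1400. It was at 29.8, 38.4 and 33.2 FPKM in WT +Pi and at 28.5, 32.6 and 31.2 FPKM in Os1400 +Pi. At low-Pi it reached 391, 374 and 394 FPKM in WT and 201, 142 and 163 FPKM in Os1400. The 4 groups of values were tight, and those at low-Pi did not overlap each other or the +Pi values. The rise was 3.47 ± 0.17 in WT and 2.56 ± 0.16 in Os1400 on the log2 scale (edgeR FDR = 0.00186 and 7.76e-06). The gene was 2.18-fold lower in Os1400 at low-Pi (edgeR FDR = 0.0184), against -0.16 ± 0.18 on the log2 scale at +Pi (edgeR FDR = 0.863), and the interaction of -0.93 ± 0.22 passed (edgeR FDR = 0.0171). The interaction was lost without WT +Pi replicate 1 or Os1400 +Pi replicate 2, with an adjusted p of up to 0.0513, and the genotype call without Os1400 low-Pi replicate 1 or 3 (up to 0.0586).

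The PR10 array of chromosome 12 (22591681 to 22601182, plus strand) behaved differently. PBZ1 (Os12g0555500, PR10a) was at 41.04, 78.1 and 48.7 FPKM in WT +Pi, at 53.0, 15.6 and 29.7 FPKM in Os1400 +Pi, and at 26.9, 59.2 and 31.0 FPKM in WT low-Pi. In Os1400 low-Pi it was at 7.36, 2.45 and 2.64 FPKM, below every other library. PR10b (Os12g0555200) was also lowest in that group, with 43.0, 69.5 and 54.5 FPKM in WT +Pi, 86.1, 18.2 and 26.4 FPKM in Os1400 +Pi, 28.7, 29.9 and 21.9 FPKM in WT low-Pi and 4.82, 3.97 and 4.395 FPKM in Os1400 low-Pi. At low-Pi PBZ1 was 9.03-fold lower and PR10b 5.83-fold lower in Os1400 than in WT (log2 -3.17 ± 0.64 and -2.54 ± 0.41, edgeR FDR = 0.0191 and 0.0184). Low Pi lowered PBZ1 by 2.88 ± 0.53 and PR10b by 3.21 ± 0.52 on the log2 scale in Os1400 (edgeR FDR = 0.00266 and 0.00141). Without Os1400 low-Pi replicate 1 the fall of PBZ1 was -3.59 and its genotype difference -3.87, and without Os1400 +Pi replicate 1 the fall of PR10b was -2.23. In WT low Pi lowered PR10b by 1.09 ± 0.27 (edgeR FDR = 0.0296), and the change of PBZ1 was -0.55 ± 0.41 (edgeR FDR = 0.443). The interaction terms of -2.34 ± 0.78 and -2.13 ± 0.68 did not pass (edgeR FDR = 0.0754 and 0.0627), although they did for PBZ1 and for PR10b in 4 and in 5 of 20 alternatives. The genotype calls were lost without any 1 of the Os1400 low-Pi libraries, with adjusted p of up to 0.0884, and the WT call of PR10b was lost without any 1 of the WT +Pi libraries. The middle gene, Os12g0555300, had 146, 48 and 51 counts in WT +Pi and 0 in the WT low-Pi libraries, which was at least 11.1-fold lower (edgeR FDR = 0.0165, lost without any 1 of the WT +Pi libraries), but it also had 0 counts in 3 of the 6 Os1400 libraries. The close sequences of PR10 neighbours may share reads, so the values of single copies are uncertain.

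Next to this array lies RSOsPR10 (Os12g0555000), the root-specific PR10 gene. Its description holds another domain of the same fold (PF10604), so it is not among the 110. It was at 134, 303 and 203 FPKM in WT +Pi, 352, 79.5 and 103 FPKM in Os1400 +Pi and 213, 195 and 365 FPKM in WT low-Pi, against 17.4, 5.90 and 20.7 FPKM in Os1400 low-Pi. It was 16.9-fold lower in Os1400 at low-Pi (log2 -4.08 ± 0.53, edgeR FDR = 0.0184). Low Pi lowered it by 3.51 ± 0.61 in Os1400 (edgeR FDR = 0.00203), or -2.54 without Os1400 +Pi replicate 1, while its change in WT was 0.23 ± 0.37 (edgeR FDR = 0.756). The interaction of -3.75 ± 0.85 passed (edgeR FDR = 0.0134) and did so in all 20 alternatives (-2.79 without Os1400 +Pi replicate 1), while the genotype call did not hold without replicate 1 or 3 of Os1400 low-Pi (adjusted p of up to 0.0563).

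JIOsPR10 (Os03g0300400), a jasmonate-inducible PR10 gene and the most abundant of the class, was at 194 to 297 FPKM at +Pi. At low-Pi it was at 453, 203 and 867 FPKM in WT and at 333, 114 and 377 FPKM in Os1400. The groups overlapped, and none of its differences passed, with log2 values between -0.82 and 0.91 (lowest edgeR FDR = 0.265). Its rise with low Pi did pass in Os1400 without Os1400 low-Pi replicate 2 (0.82, edgeR FDR = 0.000924). In WT it passed without WT low-Pi replicate 2 (1.26, edgeR FDR = 0.0436). Os08g0374000 went down in WT, from 130, 131 and 185 FPKM to 53.7, 56.1 and 60.6 FPKM (log2 -1.43 ± 0.20, edgeR FDR = 0.00823). In Os1400 it was at 142, 136 and 110 FPKM and at 114, 80.8 and 80.3 FPKM, a change of -0.39 ± 0.17 (edgeR FDR = 0.119), and the interaction of 1.03 ± 0.28 passed (edgeR FDR = 0.0307). At low-Pi it was just outside the FDR for the genotype, at 0.76 ± 0.20 (edgeR FDR = 0.0504). The interaction was lost with upper-quartile scaling, with limma on log2(FPKM + 1) and with a replicate block. It was also lost without WT +Pi replicate 3, without any 1 of the Os1400 +Pi libraries and without Os1400 low-Pi replicate 1. The adjusted p was up to 0.0846 in these settings. Of 5 PR10 genes tested at low-Pi, 3 were lower in Os1400, against 4.47% of all genes, and all 3 calls were lost without replicate 1 or without replicate 3 of Os1400 low-Pi.

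Chitinases differed from gene to gene. Chitinase 2, the most abundant, was at 168 to 372 FPKM at +Pi, at 789, 337 and 4232 FPKM in WT low-Pi and at 213, 71.8 and 371 FPKM in Os1400 low-Pi. Its level in WT low-Pi varied 11.7-fold in CPM between libraries, and neither the rise in WT of 2.57 ± 0.92 nor the genotype difference of -2.97 ± 1.06 at low-Pi passed (edgeR FDR = 0.101 and 0.128). DESeq2 called both, and the rise in WT also passed without WT low-Pi replicate 2 (3.05). Without WT low-Pi replicate 3 the rise was 0.88 and the genotype difference -1.30, and neither passed. Os08g0522500 (chromosome 8 from 25975501 to 25977441, minus strand) was steadier, with 64.2, 53.0 and 60.05 FPKM in WT +Pi, 62.5, 69.3 and 66.7 FPKM in Os1400 +Pi, 135, 120 and 151 FPKM in WT low-Pi and 78.6, 62.8 and 85.1 FPKM in Os1400 low-Pi. It rose 2.22-fold with low Pi in WT (edgeR FDR = 0.00814), and its change in Os1400 was 0.29 ± 0.14 on the log2 scale (edgeR FDR = 0.142). The gene was 1.71-fold lower in Os1400 at low-Pi (edgeR FDR = 0.0238). The interaction of -0.88 ± 0.19 passed (edgeR FDR = 0.012) and held in all 20 alternatives, whereas the genotype call was lost without WT low-Pi replicate 1 and without any 1 of the Os1400 low-Pi libraries (adjusted p of up to 0.102). Chitinase 10 (Os01g0287600), the third by mean FPKM, was at 48.5 to 72.1 FPKM at +Pi and at 17.1 to 70.8 FPKM at low-Pi, and none of its differences passed (lowest edgeR FDR = 0.111).

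Os03g0418000, named basic chitinase 10 in the tables, was nearly off in WT +Pi, with 5, 0 and 24 counts, and had 1224, 589 and 317 counts in WT low-Pi. In Os1400 it had 71, 89 and 48 counts at +Pi and 183, 165 and 248 counts at low-Pi. It rose with low Pi in both genotypes (log2 6.56 ± 1.56 in WT and 1.90 ± 0.38 in Os1400, edgeR FDR = 0.0256 and 0.00435). With WT +Pi replicate 2 or 3 left out, the WT rise was 5.96 or 8.62 and the interaction -4.09 or -6.77. At low-Pi it was lower in Os1400 (-2.04 ± 0.52, edgeR FDR = 0.0441) and was the PR gene just inside the FDR there. The interaction of -4.68 ± 1.40 was likewise just inside (edgeR FDR = 0.0485). At +Pi the 3 Os1400 values lay above the 3 WT values, but the difference of 2.68 ± 1.24 did not pass (edgeR FDR = 0.497). The rise in WT was lost without WT +Pi replicate 1 (adjusted p of up to 0.103). The genotype call was lost without WT low-Pi replicate 1 or 2 and without any 1 of the Os1400 low-Pi libraries. The interaction was lost in 8 settings that left out 1 library (adjusted p of up to 0.123), and kept without WT +Pi replicate 2 or 3 and without WT low-Pi replicate 2 or 3.

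Chitinase 9 and Chitinase 11 had 0 counts in all 3 WT low-Pi libraries. Chitinase 9 (Os05g0399400) had 52, 166 and 11 counts in WT +Pi, 682, 1457 and 245 counts in Os1400 +Pi and 92, 69 and 256 counts in Os1400 low-Pi. It was at least 19.7-fold higher in Os1400 than in WT at low-Pi (edgeR FDR = 0.025). At +Pi all Os1400 values were above all WT values, and the difference of 3.39 ± 0.72 was just outside the FDR (edgeR FDR = 0.0503). It passed without WT +Pi replicate 2 or Os1400 +Pi replicate 3. Its interaction was the one just outside the FDR (edgeR FDR = 0.0569). Low Pi lowered it by 2.09 ± 0.64 in Os1400 (edgeR FDR = 0.0337), or -1.42 without Os1400 +Pi replicate 2 and -2.94 without Os1400 low-Pi replicate 3, a call lost without Os1400 +Pi replicate 1 or 2 and without Os1400 low-Pi replicate 1 or 2. Chitinase 11 (Os03g0132900) had 87 to 178 counts in the +Pi libraries and 71, 27 and 42 counts in Os1400 low-Pi. It was at least 7.71-fold higher in Os1400 at low-Pi and at least 23.7-fold lower at low-Pi than at +Pi in WT (edgeR FDR = 0.0187 and 0.0153), and its interaction passed (edgeR FDR = 0.0033) in every setting that left out 1 library. In limma on log2(FPKM + 1) it was 0.97 (adjusted p = 0.176). The genotype calls of both genes were lost without any 1 of the Os1400 low-Pi libraries, and the WT fall of Chitinase 11 without any 1 of the WT +Pi libraries (adjusted p of up to 0.453). Among all 23827 genes with a count in each of the other 9 libraries, 7.84% had 0 counts in all 3 WT low-Pi libraries, and Chitinase 9 and Chitinase 11 were the 2 among 51 such PR genes.

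In Os1400 low Pi also lowered Chitinase 8 (Os10g0542900), from 21.7, 8.69 and 7.36 FPKM to 1.26, 1.15 and 3.12 FPKM (log2 -2.68 ± 0.51, edgeR FDR = 0.00339), and Chitinase 1 (Os06g0726200), from 46.6, 20.8 and 18.9 FPKM to 13.4, 5.19 and 9.59 FPKM (-1.51 ± 0.40, edgeR FDR = 0.0177). Chitinase 8 in WT was at 3.62, 6.12 and 5.81 FPKM and at 22.0, 2.48 and 9.71 FPKM, and its interaction of -3.77 ± 1.06 passed (edgeR FDR = 0.0373), but not without any 1 of the +Pi libraries, WT low-Pi replicate 1 or Os1400 low-Pi replicate 1 or 2. The fall of Chitinase 8 in Os1400 was -2.02 without Os1400 +Pi replicate 1 and -3.27 without Os1400 low-Pi replicate 3, while its interaction was -3.12 when that +Pi library was left out and -2.87 when WT low-Pi replicate 1 was. The call of Chitinase 1 was lost without Os1400 +Pi replicate 1 (adjusted p of up to 0.191). Os05g0138200 rose in Os1400, from 3.59 to 7.07 FPKM to 15.8 to 18.8 FPKM (1.89 ± 0.27, edgeR FDR = 0.000697). In WT it went from 4.21, 6.35 and 4.59 FPKM to 10.5, 38.1 and 15.7 FPKM and was just outside the FDR (2.06 ± 0.62, edgeR FDR = 0.0589), and it passed without WT low-Pi replicate 1. By domain, 7 of the 15 chitinases also held the chitin-binding domain PF00187, among them Chitinase 1, Chitinase 9 and Os03g0418000, and these moved in different directions with low Pi.

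Among thaumatin genes, 5 of 26 (19.2%) rose and 1 (3.85%) fell with low Pi in WT, against 8.46% and 15.2% of all genes, and 2 of 29 (6.9%) rose in Os1400, against 15.6%. The gene that fell was the most abundant of them. Os12g0569300 (chromosome 12 from 23427730 to 23428732, plus strand) was at 300.1, 269 and 239 FPKM in WT +Pi and at 140, 137 and 88.6 FPKM in WT low-Pi. In Os1400 it was at 188, 214 and 202 FPKM at +Pi and at 268, 267 and 240 FPKM at low-Pi. It fell in WT by 1.19 ± 0.23 and rose in Os1400 by 0.46 ± 0.12 on the log2 scale (edgeR FDR = 0.0151 and 0.015), with no overlap of the groups, and it was the only PR gene called in opposite directions. It was 2.23-fold higher in Os1400 at low-Pi (edgeR FDR = 0.0188), and at +Pi the difference was -0.44 ± 0.11 (edgeR FDR = 0.0939). The interaction of 1.63 ± 0.26 passed (edgeR FDR = 0.00241) in all 20 alternatives. The WT fall was lost without any 1 of the WT +Pi libraries, the rise in Os1400 without Os1400 +Pi replicate 1 or low-Pi replicate 1, and the genotype call without any 1 of the Os1400 low-Pi libraries, each with an adjusted p of at most 0.165.

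Its neighbour in an array of 3 genes, Os12g0568900, did not share this pattern. It was at 190, 218 and 211 FPKM in WT +Pi, 137, 165 and 187 FPKM in Os1400 +Pi, 396, 225 and 261 FPKM in WT low-Pi and 165, 195 and 162 FPKM in Os1400 low-Pi, and none of its differences passed (lowest edgeR FDR = 0.131). Os01g0839900 rose 1.63-fold in WT, from 136, 173 and 152 FPKM to 316, 240 and 219 FPKM, and was just inside the FDR (edgeR FDR = 0.0419). In Os1400 it was at 122, 154 and 145 FPKM and at 101, 126 and 73.3 FPKM, a change of -0.38 ± 0.20 (edgeR FDR = 0.176). Os01g0839900 was 2.44-fold lower in Os1400 at low-Pi (edgeR FDR = 0.0222), with an interaction of -1.10 ± 0.31 (edgeR FDR = 0.0383). The WT rise was lost without any 1 of the WT +Pi libraries or WT low-Pi replicate 1 or 2, the genotype call without WT low-Pi replicate 1 or Os1400 low-Pi replicate 1 or 3, and the interaction in 9 settings that left out 1 library, with adjusted p of up to 0.183.

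The gene named PR5 rose with low Pi in WT, and both it and OsPR5 were lower in Os1400 than in WT at low-Pi. Os12g0628600 (PR5) was at 15.1, 32.2 and 13.8 FPKM in WT +Pi and at 129, 62.8 and 413 FPKM in WT low-Pi, and in Os1400 at 22.9, 9.19 and 13.1 FPKM and at 28.2, 15.6 and 26.3 FPKM. It rose by 3.25 ± 0.77 in WT (edgeR FDR = 0.0256) and was lower in Os1400 at low-Pi by 3.03 ± 0.71 (edgeR FDR = 0.0321) on the log2 scale. Without WT low-Pi replicate 3 these values were 2.15 and -1.96 and still passed. The interaction of -2.52 ± 0.86 did not pass (edgeR FDR = 0.0815). Os03g0661600 (OsPR5) was at 22.7, 13.5 and 52.4 FPKM in WT low-Pi and at 4.45, 2.37 and 6.54 FPKM in Os1400 low-Pi (-2.66 ± 0.64, edgeR FDR = 0.0343). At +Pi the level was 5.41 to 23.1 FPKM, a range that held 2 of the 3 WT low-Pi libraries, and the Pi changes did not pass (edgeR FDR = 0.372 in WT and 0.126 in Os1400). The PR5 rise was lost without any 1 of the WT +Pi libraries, its genotype call without any 1 of the Os1400 low-Pi libraries, and that of OsPR5 without those or WT low-Pi replicate 3 (then -1.96), with adjusted p of up to 0.125. Os06g0691200 rose in both genotypes (1.22 ± 0.29 in WT and 1.32 ± 0.24 in Os1400, edgeR FDR = 0.0257 and 0.00252). Os11g0703100 and Os12g0630100, the latter named Tolerance of Nitrogen Deficiency 1, rose in WT by 1.47 ± 0.32 and 3.03 ± 0.66 (edgeR FDR = 0.019 and 0.0186), both calls being lost without WT +Pi replicate 1 or 3. In Os1400 their changes were 0.57 ± 0.21 and 0.19 ± 0.70 and did not pass (edgeR FDR = 0.0686 and 0.877), and the interactions did not pass either (edgeR FDR = 0.187 and 0.0981). PR5 and Os12g0630100 lie in an array of 7 thaumatin genes on chromosome 12 (26913087 to 26981082), of which 5 had counts, and no other gene of the array was called for Pi in WT.

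**Figure D4:**
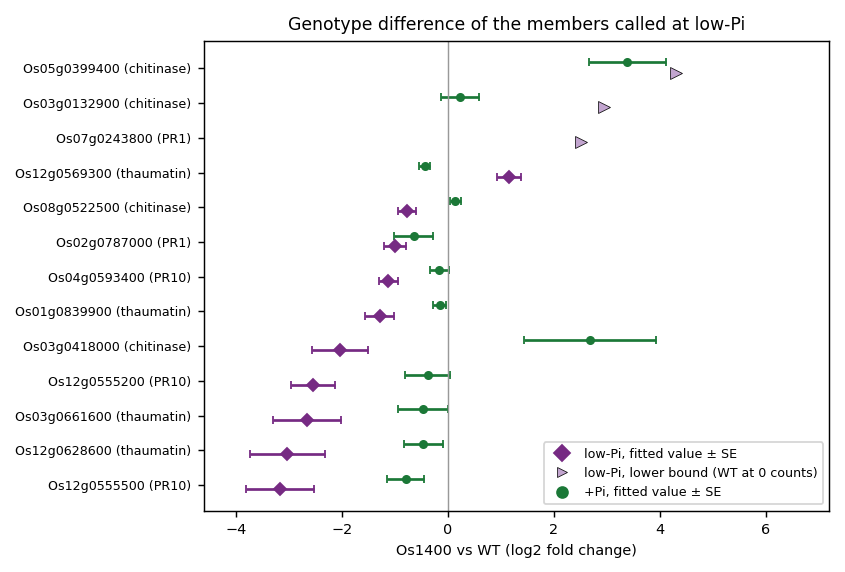
Log2 fold change of Os1400 against WT (x axis) for the 13 PR genes called at low-Pi, with the SE of the edgeR fit, and the same at +Pi; right-pointing triangles are lower bounds for genes with 0 counts in the WT low-Pi libraries. Apart from the 3 lower bounds, which lie at the right, values at low-Pi run from -3.17 for PBZ1 to 1.16 for Os12g0569300, and none of the +Pi values passed the FDR.

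**Figure D5:**
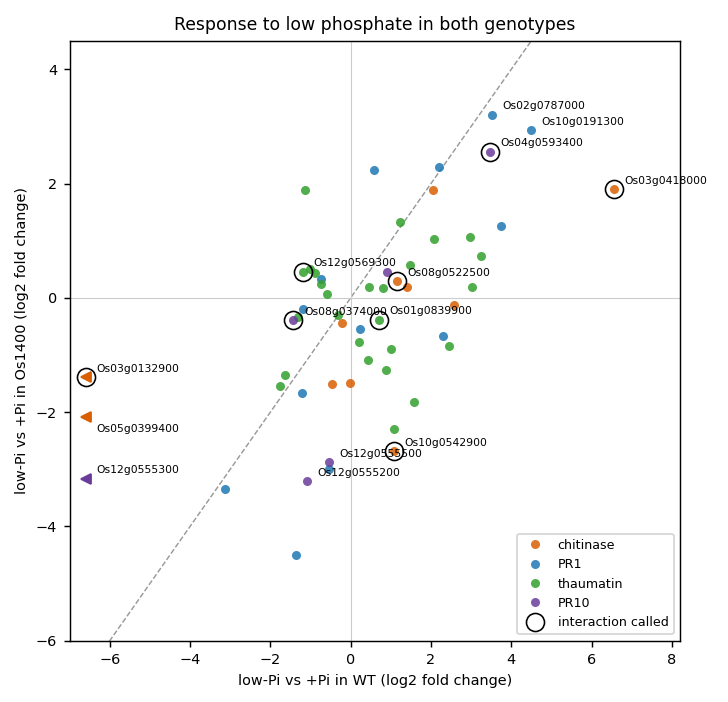
Log2 fold change with low Pi in WT (x axis) and in Os1400 (y axis) for the 56 PR genes tested in both; circles mark genes with a called interaction, triangles at the left edge are genes with 0 counts in all WT low-Pi libraries, whose WT value has no upper limit in size, and the dashed line marks equal changes. Os03g0418000 lies farthest to the right, at 6.56 in WT and 1.90 in Os1400, and Os12g0569300 lies in the upper left quadrant.

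Other defence genes were counted from lists of the same descriptions, beside the all-gene shares of 8.46% rising and 15.2% falling with low Pi in WT and 15.6% and 14.0% in Os1400. Of 4 PR4 genes tested (barwin domain), 2 rose in WT, and 1 rose and 2 fell in Os1400. Of the PR2 glucanases, 5 of 47 (10.6%) rose and 2 (4.26%) fell in WT, and 11 of 49 (22.4%) rose and 8 (16.3%) fell in Os1400. Of the PR14 lipid transfer proteins, 15 of 38 (39.5%) rose and 9 (23.7%) fell in WT, and 19 of 50 (38%) rose and 7 (14%) fell in Os1400. Of the PR8 chitinases, which have the other (GH18) fold, 1 of 19 (5.26%) rose and 3 (15.8%) fell in WT, near the share of all genes that fell, and 1 of 21 (4.76%) rose and 7 (33.3%) fell in Os1400. Germin-like cupins were lower in Os1400 than in WT for 3 of 32 (9.38%) at +Pi and 3 of 25 (12%) at low-Pi, against 0.418% and 4.47% of all genes. Those at +Pi were Os08g0189500, Os08g0189700 and Os08g0189850, and those at low-Pi Os08g0189700, Os08g0189900 and Os05g0277500. All but the last have neighbouring gene IDs, and their reads may be shared, so they may not be separate observations. Of the TIFY genes, which hold the jasmonate repressors, 1 of 17 (5.88%) rose and 7 (41.2%) fell with low Pi in Os1400, and 1 of 16 (6.25%) rose and 2 (12.5%) fell in WT. The PF10604 genes, to which RSOsPR10 belongs, had 3 of 11 (27.3%) lower and 0 higher in Os1400 at low-Pi, against 4.47% and 12.4% of all genes. With low Pi 3 of 11 (27.3%) of them rose and 0 fell in WT. In Os1400 5 of 14 (35.7%) rose and 3 (21.4%), among them RSOsPR10, fell.

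Regulators of salicylic acid defence were measured with them. OsNPR1, the co-activator of the pathway, changed with low Pi by -1.41 ± 0.32 in Os1400 and by -0.90 ± 0.75 in WT (edgeR FDR = 0.0078 and 0.498). OsWRKY45, which acts beside it in rice, fell by 1.31 ± 0.13 on the log2 scale in Os1400 (edgeR FDR = 6.54e-05), and its change in WT was -0.50 ± 0.51 (edgeR FDR = 0.59). Their interactions of -0.53 ± 0.86 and -0.83 ± 0.55 did not pass (edgeR FDR = 0.769 and 0.381). OsAOC, an enzyme of jasmonate synthesis, rose with low Pi by 1.34 ± 0.19 in WT and by 0.67 ± 0.11 in Os1400 (edgeR FDR = 0.00882 and 0.00123). It was lower in Os1400 at low-Pi, by 0.74 ± 0.18 (edgeR FDR = 0.0336), with an interaction of -0.69 ± 0.19 (edgeR FDR = 0.0359). OsAOS2, listed for the same synthesis, changed with low Pi by 0.53 ± 2.80 in WT and by -3.44 ± 1.33 in Os1400, without passing (edgeR FDR = 0.933 and 0.0797). Of 12 lipoxygenases, listed with them, 3 rose and 2 fell in WT (8.46% and 15.2% of all genes). In Os1400 2 of 12 rose and 3 fell (15.6% and 14.0% of all genes). At low-Pi 3 of 10 were lower and 1 was higher in Os1400 (4.47% and 12.4% of all genes). These genes thus went both ways with low Pi.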

How the data were processed

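RNA of 12 root libraries (4 groups of 3) was sequenced as paired ends. The authors mapped the reads with HISAT2 2.0.5 and counted them per gene with featureCounts 1.5.0-p3, per the submitters' processing notes, and the genome build, the handling of reads shared between genes and the use of strand are not given in the sources used here. They deposited unnormalized counts in a +Pi table of 32722 genes and a low-Pi table of 31952, beside fold changes and p-values of their own DESeq2 comparison, which were not used. The authors' FPKM table divides fragments by gene length and library size. A total of 28 further value columns were not used.

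Counts were tested with edgeR 4.0.16 in R 4.3.3 (TMM, filterByExpr with minimums of 10 and 15 counts, quasi-likelihood test, BH-adjusted p-values, FDR of 0.05 or less) on the 6 libraries of a comparison, and on 12 for the interaction. Genotypes were compared within a count table. The Pi comparisons and the interaction joined both tables on the 30742 genes listed in both. SEs are the absolute log2 fold change divided by the square root of the F value. CPM used TMM factors over all 12 libraries. A gene with at most 3 counts in each library of a group is given as a bound against 3 counts per library. Genes less than 100000 bp apart in 1 class formed an array.

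Alternatives were DESeq2 1.42.0, limma 3.58.1 on log2(FPKM + 1) with a mean FPKM of at least 0.1, other scalings, no filter or at least 10 counts in every library, a replicate block, a fit of all 12 libraries, genes of either table and each library left out. The main edgeR fit and the DESeq2 and limma fits were run on simulated data first, and the other alternatives were not. The simulated libraries all had the same dispersion, so they did not mimic the wide spread of the low-Pi WT libraries. Replicates of a group were compared by a chi-square test of their counts, and every pair differed by more than sampling noise.

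Named genes were, per class, the 3 highest by mean FPKM and up to 3 per direction and comparison with the smallest p among those called. Known rice PR genes, genes with at most 3 counts in each library of a group and at least 30 in each of another, and those just inside or outside the FDR were added. The members and lists were chosen with earlier results of these data known.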

Additional observations from a re-analysis of the deposited data

Results flagged for a closer look

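For 8 of 64 PR genes tested the interaction term of edgeR (BH-adjusted), which asks whether the difference between Os1400 and WT depended on Pi, passed. It was positive for 4.69% and negative for 7.81% of the PR genes. Of all 28691 genes 13.4% were called, with 10.6% positive and 2.82% negative, so the number of calls is not particular to PR genes. On the log2 scale, the difference at low-Pi minus that at +Pi was -0.93 for Os04g0593400 (PR10), 1.03 for Os08g0374000 (PR10), -3.77 for Os10g0542900 (Chitinase 8), -4.68 for Os03g0418000 (basic chitinase 10), -0.88 for Os08g0522500 (chitinase), -1.10 for Os01g0839900 (thaumatin) and 1.63 for Os12g0569300 (thaumatin). For Os03g0132900 (Chitinase 11) the fitted value was 8.49, which depends on the prior count, since the gene had 0 counts in the 3 WT low-Pi libraries. At low-Pi it was at least 7.71-fold higher in Os1400, and at +Pi the difference was 0.24 ± 0.36 on the log2 scale. The terms of Os08g0522500 and Os12g0569300 passed in all 20 alternatives. That of Os03g0418000 passed in 9 of 19, that of Os10g0542900 in 9 of 20 and that of Os01g0839900 in 11 of 20.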

How the results depend on the processing

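All 59 named differences that passed the FDR kept their sign in every alternative, and 19 passed in every one. Losses given for single genes refer to left-out libraries unless another setting is named, and some calls were also lost in other settings. The number of PR genes called moved more. At +Pi it went from 0 to 2 with DESeq2, to 3 with no filter on low counts, and to 1 with upper-quartile scaling, with at least 10 counts in every library or with the replicate block. The share of all genes called there was at most 1.09% in each direction in every setting. At low-Pi it went from 13 to 25 with DESeq2, to 21 in a fit of all 12 libraries, to 4 with no filter and to 7 with the replicate block. Calls over all genes moved too, from 12.4% higher and 4.47% lower in the main fit. The shares were 13.6% and 8.08% with DESeq2 and 18.9% and 8.32% in the fit of all 12 libraries. With no filter they were 2.24% and 1.74%, and with the block 1.57% and 2.54%. In WT the Pi calls went from 19 to 10 with the replicate block, in Os1400 from 19 to 10 in the fit of all 12 libraries, and the interaction from 8 to 15 with DESeq2 and to 5 with the replicate block. Over all genes, 8.46% rising and 15.2% falling in WT became 4.25% and 3.47%. In Os1400, 15.6% and 14.0% became 5.53% and 3.39%. For the interaction, 10.6% positive and 2.82% negative became 12.1% and 6.03% with DESeq2 and 8.68% and 2.53% with the block. Leaving out 1 library at a time gave 0 to 1 calls at +Pi, 0 to 20 at low-Pi, 6 to 27 for Pi in WT, 14 to 22 for Pi in Os1400 and 4 to 13 for the interaction. The Pi change of PR1a (Os07g0129200) in WT turned from 0.24 to -1.14 on the log2 scale without WT low-Pi replicate 3, and leaving out 1 library gave -1.14 to 0.64. The cause of these moves was not tested. Deviations from the group means were correlated over genes between libraries of 2 groups. In the low-Pi genotype comparison the correlations were -0.02, 0.37 and 0.45 for replicates 1, 2 and 3 of the same number. Differing numbers gave -0.46 to 0.14 there. In the other pairwise comparisons the same numbers gave -0.05 to 0.09. Whether same-numbered low-Pi libraries shared a condition was not tested, and the main fits did not pair them. Counts near 0 in the low-Pi WT libraries limit bounds and zeros, and 3 libraries per group limit each test.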

Other observations

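In the thaumatin array of chromosome 12 that begins at position 23410052, Os12g0569300 was 2.23-fold higher in Os1400 at low-Pi, and Os12g0568900, in the same array and on the same strand, had a log2 difference of -0.68 ± 0.25 that did not pass (edgeR FDR = 0.131). Whether the differences of these genes differ from each other was not tested. In the chitinase array of chromosome 5 that spans positions 19426767 to 19447487, Chitinase 2 had 22073, 8930 and 93176 counts in WT low-Pi, while Chitinase 9 had 0 counts in the same 3 libraries. In Os1400 low-Pi the 2 genes had 6653, 2573 and 11165 counts and 92, 69 and 256 counts.

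In some PR genes that passed in no comparison, single libraries were high. Os07g0127500 (PR1-72) had 580 counts in Os1400 +Pi replicate 1, 58 and 29 counts in the other 2 libraries of that group and 68 to 124 counts in WT +Pi. Os05g0595000 (PR1-51) had 466 counts in WT low-Pi replicate 3, 110 counts in replicate 1 and 0 in replicate 2. Os12g0630500, a thaumatin gene, had 834, 611 and 6770 counts in WT low-Pi and 202, 125 and 750 counts in Os1400 low-Pi. These genes were picked after their values were seen.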
